A study of Arabidopsis thaliana with 11 samples.

Results

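The comparison described here sets guard cells of Arabidopsis thaliana plants that went through 3 rising rounds of salt against guard cells of plants that met only the last round. Its members are 7 of the 11 samples, 4 labelled 3x salt and 3 labelled 1x salt, and all 28718 loci of the table of normalised values that the authors deposited. All plants were of the accession Columbia-0 and were 4 to 5 weeks old at the start. Plants of the 3x salt group had their pots soaked for 2 h in 75 mM NaCl on days 1 and 2, in 150 mM on days 7 and 8, and in 200 mM on days 13 and 14. The 1x salt plants met 200 mM NaCl alone, on days 13 and 14, so both groups share that last round. A further group of 4 samples, labelled no salt, had tap water and is shown for its level. All 3 groups were sampled on day 15 after 4 h of light, at 6 to 7 weeks of age, and each sample had its own 1-colour Agilent array. The labels do not say whether samples came from separate plants, so the p-values below measure the spread between samples, which may be technical.

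Guard cells form the pore through which a leaf takes up CO2 and loses water. They open it by taking up potassium and other solutes and close it by releasing them through anion channels and outward potassium channels, under the control of light, CO2 and the hormone abscisic acid (ABA). ABA binds PYR/PYL receptors, which hold back clade A PP2C phosphatases, and this frees SnRK2 kinases such as OST1 to act on channels and on ABF transcription factors. Salt in the soil raises ABA and brings sodium and chloride to the leaf, where transporters of the plasma membrane and the vacuole sort them.

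The label was checked against marker genes. The guard cell factors FMA and MYB60 and the myrosinase TGG1, abundant in guard cells, were well above background on all 7 arrays. So were 13 of 14 tested vascular markers, 7 of 7 tested pavement cell and trichome markers and 4 of 7 tested stomatal lineage genes. Dim loci were left out before testing, so these shares are partly set by that choice. GL1 and GL3, among the 9 listed pavement cell and trichome markers, had a matched probe but were too dim to be tested. The same held for SPCH of the stomatal lineage list. How guard cells were enriched is not given in the sources used here. In such bulk samples fewer cells of a type and less RNA per cell cannot be told apart.

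One array stood apart from its group. The SD across loci of the log2 differences between 1x salt 1 and its group mates was 0.552 and 0.615, against 0.349 between 1x salt 2 and 3. Distances of 1x salt 1 to the no-salt samples were of the same size, 0.565 to 0.593. Those of 1x salt 2 to the no-salt samples were similar, 0.572 to 0.627. Among 3x salt samples, 1 and 2 differed by an SD of 0.219 and 3 and 4 by 0.228, while across these pairs the SD was 0.425 to 0.469. The arrays had 66.2% to 80.3% of their spots above background, the highest being 1x salt 3, which also had 442 outlier spots against 9 to 38 on the others. Counts of called list members are given without 1x salt 1 too, but not without 1x salt 3. The median difference kept its sign in 32 of 35 lists without 1x salt 1, and likewise in 32 without 1x salt 3.

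**Figure D1:**
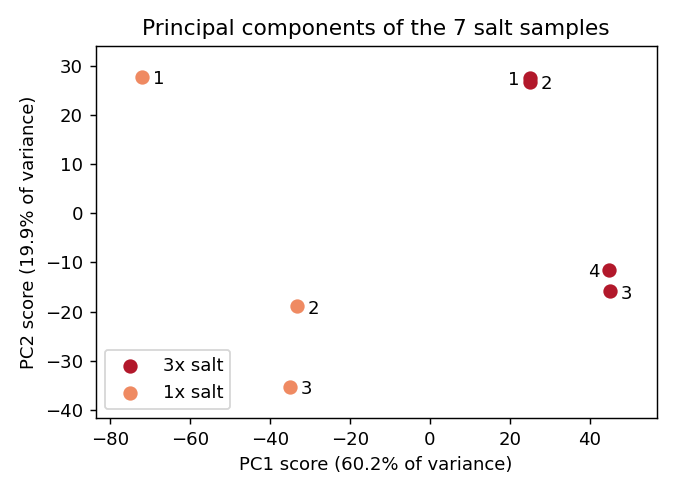
Scores of the 7 salt samples on the first (horizontal) and second (vertical) principal component of the deposited log2 levels of tested loci, each point a numbered sample. The 4 3x salt samples lie at 25.0 to 45.0 on the first component, the 3 1x salt samples at -71.8 to -33.1, and 1x salt 1 lies far from 1x salt 2 and 3.

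Of the 28718 loci, 18931 had a matched probe that 3 or more of the 7 arrays flagged as well above background, and were tested. Values are log2 levels as deposited, and a difference is 3x salt minus 1x salt on the log2 scale. With limma and a Benjamini-Hochberg adjusted p below 0.05, 5463 loci were called, 28.9% of those tested. They divide into 3131 loci higher in 3x salt (16.5%) and 2332 lower (12.3%). Differences of at least 1 were less common among the rises, with 599 loci, than among the falls, with 888. The median difference was 0.66 among called rises and -0.84 among called falls, against 0.07 over all tested loci. Without 1x salt 1, 4628 loci were called (24.4%), 2641 higher (14.0%) and 1987 lower (10.5%). Of the first 5463 calls, 75.0% were called again and all kept their direction. Without 3x salt 4, 3477 were called. Samples of the salt groups did not overlap in 40.5% of tested loci, 3x salt being above in 24.1% and below in 16.4%.

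When 3x salt 1 and 2, 3x salt 3 and 4, and 1x salt 2 and 3 were each averaged to 1 sample, leaving 2 against 2, limma called 0 loci, with 4708 at an unadjusted p below 0.05. With slide as a fixed block over all 11 arrays, 2987 loci were called. Every call below is to be read with these counts. List counts are to be read beside 16.5% higher and 12.3% lower over all tested loci. Without 1x salt 1 those shares were 14.0% and 10.5%.

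**Figure D2:**
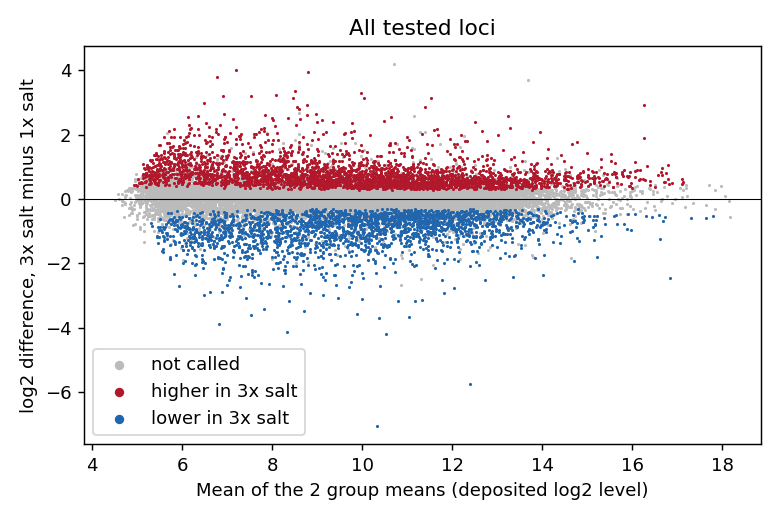
Difference of each tested locus (3x salt minus 1x salt, log2, vertical) against the mean of both group means (deposited log2 level, horizontal), red for the 3131 loci called higher in 3x salt, blue for the 2332 called lower and grey for the others. The falls reach further from 0 than the rises among called loci, to below -5.

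Among ABA genes, many markers and phosphatases were higher in 3x salt, while the hormone's receptors and its synthesis genes showed few calls. Of 14 tested ABA and dehydration markers outside the LEA family, 7 rose and 0 fell, with a median difference of 0.71. The counts were the same, 7 and 0, without 1x salt 1. HB7 and HB12, homeodomain factors induced by ABA and drought, rose beside each other. HB7 had levels of 13.47, 13.45, 13.59 and 13.59 in 3x salt, against 12.27, 12.48 and 12.16 in 1x salt, and 12.42, 12.18, 12.07 and 12.07 in no salt. All 4 3x salt values were above all others, while 1x salt and no salt overlapped. The difference was 1.22 (SE 0.11, limma adjusted p = 0.000898). HB12 differed by 1.26 (adjusted p = 0.00157), although no salt 1, at 13.76, lay within the 3x salt range of 13.66 to 14.04.

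RD29A and RD29B, whose promoters are textbook reporters of dehydration and ABA, were higher by 1.02 (SE 0.13) and 1.45 (SE 0.31). RD29B had 11.68, 11.61, 10.94 and 11.38 in 3x salt, against 9.47, 10.71 and 9.68 in 1x salt. The groups did not overlap, though 1x salt 2 came close to the lowest 3x salt sample. Also called were DREB2A, a factor of the dehydration response (0.98), AFP1, an ABI5-binding protein (1.34), and the linker histone HIS1-3 (0.78). On scanner values of the brightest probe RD29A differed by 0.59 and HIS1-3 by 0.45. RD22, RD26, RD20 and NAC019 did not pass, with differences of 0.18, 0.26, -0.08 and -0.04.

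Dehydrins and other LEA proteins, which protect cells that lose water, moved unevenly. Of 13 tested, 3 rose, 1 fell and the median was 0.43 (4 rose and 1 fell without 1x salt 1). With 16.5% higher and 12.3% lower over all tested loci, the counts alone do not set this list apart. RAB18, a dehydrin induced by ABA, had 17.22, 17.36, 17.11 and 17.09 in 3x salt, against 14.70, 15.54 and 15.67 in 1x salt, and 13.46, 13.93, 14.11 and 14.12 in no salt. The 3 groups formed separate steps. The difference of RAB18 was 1.89 (SE 0.23, adjusted p = 0.00207), a 3.71-fold rise, but 0.87 on the scanner values of its brightest probe. LTI30 rose by 1.40 and ERD10 by 0.61, and COR15B, a chloroplast protein of cold acclimation, fell by 0.71. The call of ERD10 was lost on scanner values (0.16, adjusted p = 0.353). LEA7 showed how much 1x salt 1 weighs: it had 15.13, 15.24, 15.88 and 15.85 in 3x salt, against 8.29, 13.66 and 13.51 in 1x salt. Its difference of 3.70 missed the threshold with that sample (adjusted p = 0.0524) and passed without it (adjusted p = 0.00325).

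The phosphatases that restrain ABA signalling mostly rose. Of 9 tested clade A PP2Cs, 6 rose and 0 fell, with a median of 0.83, and the counts were the same without 1x salt 1. HAI3 had 7.61, 7.70, 8.00 and 7.94 in 3x salt, against 5.32, 5.26 and 6.77 in 1x salt, and 4.80 to 5.41 in no salt. Its probe was detected on all 4 3x salt arrays but on 1 of 3 1x salt arrays, and it differed by 2.03 (SE 0.35, adjusted p = 0.00627). HAI1 (1.24), AHG1 (1.06), HAI2 (0.97), HAB1 (0.83) and ABI2 (0.66) were the other rises, of which AHG1 was not called on scanner values (adjusted p = 0.118). ABI1, HAB2 and AHG3 did not pass, with 0.16, 0.36 and 0.12.

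Upstream of the phosphatases, 0 of 9 tested PYR/PYL receptors were called in either direction, with a median of -0.42, and 0 without 1x salt 1. PYL6 split the 3x salt group, with 8.13, 8.30, 6.56 and 6.63, against 9.09, 8.23 and 8.32 in 1x salt. Of 8 kinases and ABF factors, 3 rose and 1 fell (median 0.30), with the same counts without 1x salt 1. Among all tested loci 16.5% were higher and 12.3% lower. ABI5, the factor of seed and seedling ABA responses, rose by 0.90, ABF1 by 0.64 and ABF2 by 0.35, whereas ABF3 fell by 1.08 (SE 0.13, adjusted p = 0.00222). ABF2 was not called on scanner values (adjusted p = 0.158). OST1, the kinase that drives stomatal closure, had 10.18, 10.03, 9.81 and 9.62 in 3x salt, against 10.30, 10.15 and 10.69 in 1x salt. These ranges overlapped and the difference of -0.47 did not pass (adjusted p = 0.0873).

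Of 11 genes of ABA synthesis and breakdown, 1 was called, and 1 without 1x salt 1. Among all tested loci 28.9% were called, and 24.4% without that sample. ABA3, which makes the cofactor of the last synthesis enzyme, rose by 0.37, and without that sample its adjusted p was 0.0507. NCED3, the stress-induced rate-limiting enzyme of ABA synthesis, had 9.46, 9.40, 10.25 and 10.26 in 3x salt, against 9.52, 9.43 and 9.46 in 1x salt, and 9.96 to 10.91 in no salt. Samples 1 and 2 of 3x salt thus lay at the 1x salt level and samples 3 and 4 above it. The difference of 0.38 did not pass (adjusted p = 0.279).

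**Figure D3:**
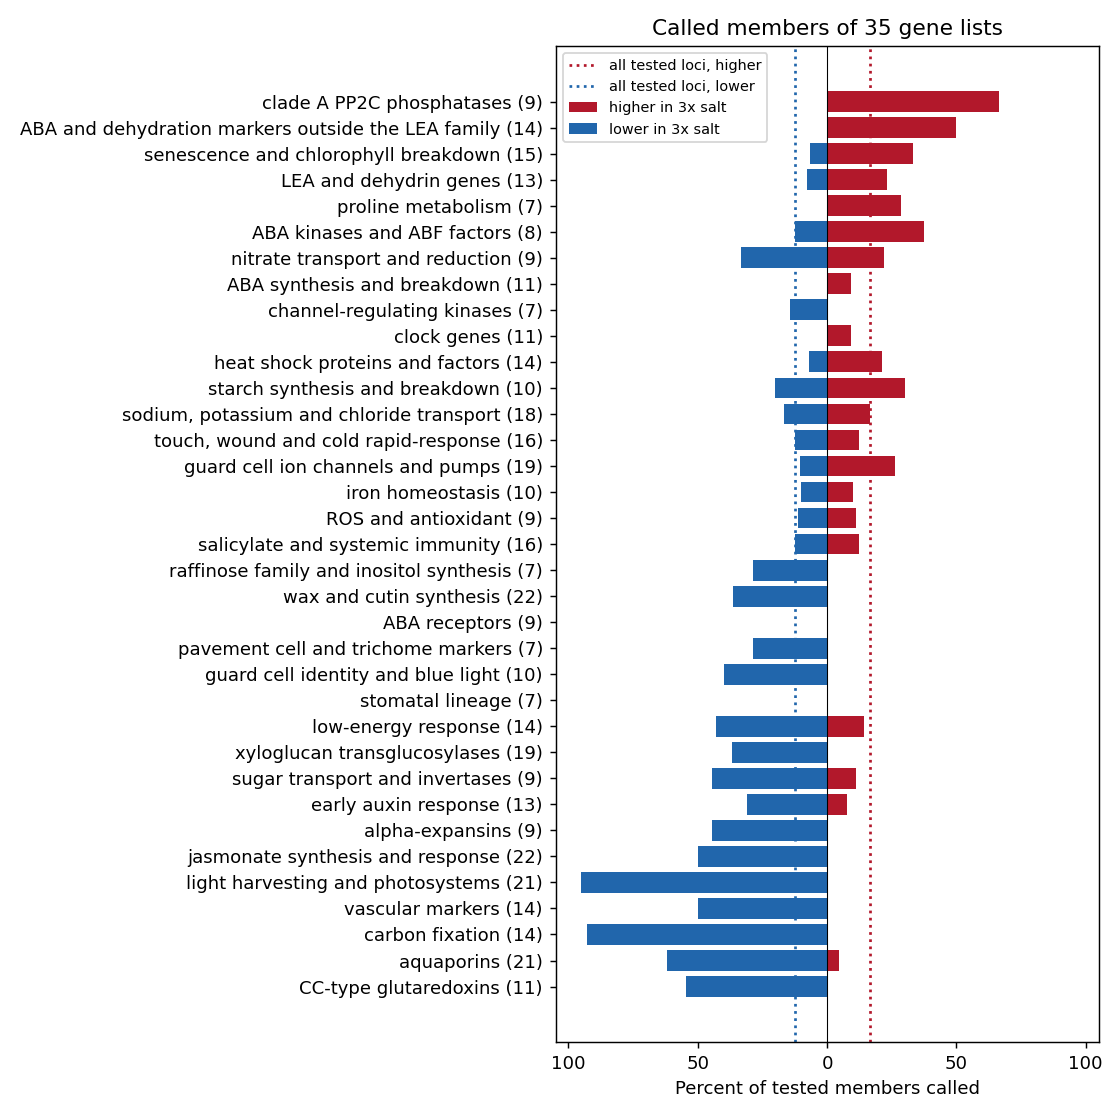
Share of the tested members of each of 35 gene lists (number in brackets) called higher (right, red) or lower (left, blue) in 3x salt, ordered by median difference, with dotted lines at 16.5% and 12.3% of all tested loci. Light harvesting, carbon fixation, aquaporins, glutaredoxins, jasmonate and vascular lists lie furthest to the left of their line, and the phosphatases and ABA markers furthest to the right.

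Of 19 tested ion channels and pumps of guard cells, 5 rose and 2 fell (median -0.12), and 4 rose and 2 fell without 1x salt 1. Over all tested loci 16.5% were higher and 12.3% lower, so the counts alone do not set the list apart. Both falls were inward potassium channels, which carry the uptake that opens the pore. KAT1 had 11.82, 11.89, 11.75 and 11.76 in 3x salt, against 12.65, 12.92 and 13.20 in 1x salt, and 12.51, 12.77, 12.83 and 12.97 in no salt. The lowest 1x salt sample lay above every 3x salt sample, and 1x salt and no salt overlapped. KAT1 was 2.17-fold lower (difference -1.12, SE 0.14, adjusted p = 0.00233), and KAT2 differed by -1.25 (SE 0.17, adjusted p = 0.00278).

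GORK, the outward potassium channel that releases potassium during closure, had 11.99, 11.82, 11.52 and 11.45 in 3x salt, against 10.67, 10.97 and 11.21 in 1x salt, and 10.08, 10.49, 10.20 and 10.20 in no salt. The order was 3x salt, 1x salt, no salt, without overlap. The difference of 0.74 (SE 0.18) had an adjusted p of 0.0199, and 0.0495 without 1x salt 1. AKT1, another inward potassium channel, rose by 0.55.

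SLAH2, an anion channel of the SLAC1 family, showed the largest rise of the list. It had 8.93, 9.38, 8.49 and 8.57 in 3x salt, against 6.25, 7.14 and 6.56 in 1x salt, and 5.08 to 5.67 in no salt. The difference was 2.19 (SE 0.27, adjusted p = 0.00227), a 4.56-fold rise. SLAC1 itself, the main anion channel of closure, had 11.55, 11.21, 11.02 and 11.10 in 3x salt, against 11.66, 11.34 and 11.66 in 1x salt. Its ranges overlapped (difference -0.33, adjusted p = 0.15). ALMT12, the malate-activated rapid anion channel, came closer to the threshold with -0.89 (adjusted p = 0.0534), and it had 9.86 to 10.20 in 3x salt, against 10.18 to 11.58 in 1x salt. The proton pump AHA1 rose by 0.40 and ALMT6, a vacuolar anion channel, by 0.50, but neither was called on scanner values (adjusted p = 0.706 for AHA1 and 0.0562 for ALMT6), nor ALMT6 without 1x salt 1. Among kinases that act on channels, 1 of 7 was called: HT1, which conveys the CO2 signal, fell by 0.68 and was no longer called without 1x salt 1 (adjusted p = 0.0712).

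Transporters of sodium, potassium and chloride were called in 6 of 18 cases, 3 in each direction, with a median of -0.01 (3 rose and 2 fell without 1x salt 1). That is close to the 28.9% called over all tested loci. The calcium sensors of the SOS pathway, which drives sodium out of cells, moved apart. SOS3 had 10.56, 10.61, 10.98 and 10.97 in 3x salt, against 9.51, 9.99 and 10.06 in 1x salt, and rose by 0.93 (SE 0.18, adjusted p = 0.00914). CBL10, the sensor known for shoots, had 9.16, 9.04, 9.40 and 9.31 in 3x salt, against 10.23, 10.36 and 10.27 in 1x salt, and fell by 1.05 (SE 0.12, adjusted p = 0.00157). Neither pair of groups overlapped. SOS1, the sodium exporter of that pathway, did not pass (0.11, adjusted p = 0.592).

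NHX1, which loads sodium and potassium into the vacuole, rose by 0.53 (SE 0.13, adjusted p = 0.0208, and 0.0493 without 1x salt 1), while its relative NHX2 fell by 0.60 (adjusted p = 0.0267, and 0.0637 without 1x salt 1). CHX17, a cation/proton exchanger, rose by 1.03. On scanner values neither NHX1 (0.26, adjusted p = 0.0549) nor CHX17 (adjusted p = 0.0625) was called. HKT1, a sodium transporter, was too dim to be tested, with levels of 5.03 to 5.80 in 3x salt, against 5.05 to 5.64 in 1x salt.

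Both reductases called in the nitrate list rose, and the called transporters fell. NIA2, the main nitrate reductase, had 12.77, 12.70, 12.62 and 12.62 in 3x salt, against 10.73, 10.79 and 10.56 in 1x salt, and 12.14, 12.18, 12.18 and 12.22 in no salt. The 1x salt samples were thus the low ones, and 3x salt lay slightly above no salt. The difference was 1.98 (SE 0.10, adjusted p = 0.000148). NIR1, nitrite reductase, rose by 0.64, the nitrate transporter NRT1.1 fell by 0.86 and chloroplast glutamine synthetase GLN2 fell by 1.04. In all, 2 of 9 members rose and 3 fell, and 2 rose and 2 fell without 1x salt 1.

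Photosynthesis genes showed the most uniform pattern. Of 21 tested light-harvesting and photosystem genes, 20 fell and 0 rose, with a median of -0.92 (19 fell without 1x salt 1, median -0.78). The mean level of the list was 13.09 to 13.19 in 3x salt, against 13.76 to 14.39 in 1x salt. LHCA1, an antenna protein of photosystem I, had 12.03, 12.20, 12.38 and 12.34 in 3x salt, against 13.81, 13.25 and 13.19 in 1x salt, and 13.26 to 14.02 in no salt. Values of 1x salt and no salt overlapped and both lay above 3x salt. The difference of LHCA1 was -1.18 (SE 0.18, adjusted p = 0.00386). The member that was not called, LHCB1.1, differed by -0.56 (adjusted p = 0.0585).

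Carbon fixation genes fell alongside. Of 14 tested, 13 fell and 0 rose, with a median of -1.06 (10 fell without 1x salt 1, median -0.85). CA1, a carbonic anhydrase that takes part in the CO2 response of guard cells, had 11.75, 11.67, 11.14 and 11.27 in 3x salt, against 15.17, 13.52 and 13.24 in 1x salt, and 14.14 to 14.39 in no salt. Even the lowest 1x salt sample was more than 1 above the 3x salt samples, and 1x salt 1 exceeded all others. The difference was -2.52 (SE 0.44, adjusted p = 0.00618). RBCS2B, a small subunit of Rubisco, differed by -1.82 (adjusted p = 0.00329) and RBCS1A by -1.22, while RBCS1B did not pass (-0.10). The small-subunit genes are close copies, so probes may share signal between them. Guard cells and mesophyll both express these genes, and mesophyll is not told apart by them.

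**Figure D4:**
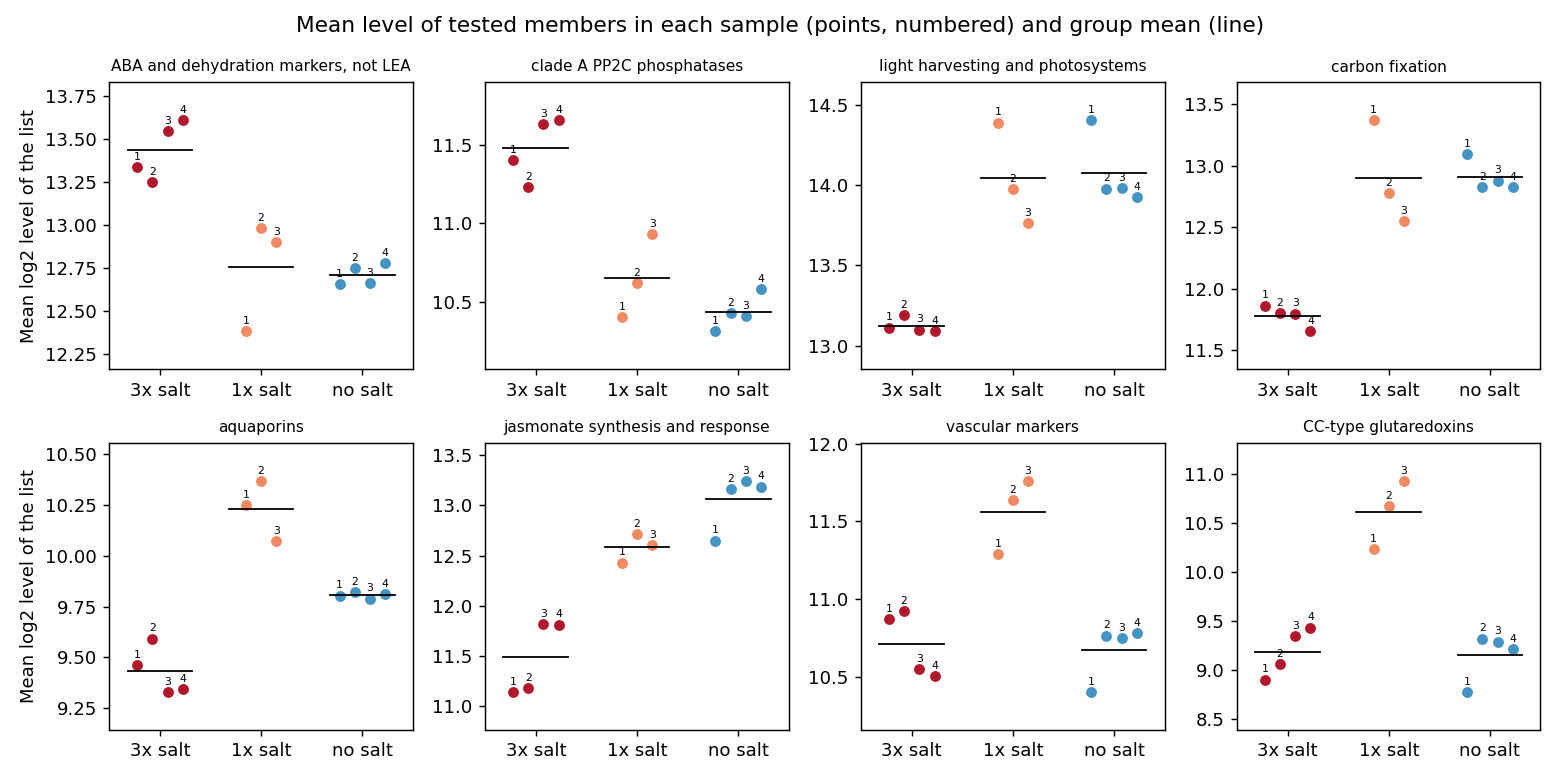
Mean deposited log2 level of the tested members of 8 gene lists in each sample (numbered points; lines are group means), with 3x salt at the left, 1x salt in the middle and no salt at the right. Photosynthesis levels are near those of no salt in 1x salt and lower in 3x salt, whereas glutaredoxin and vascular levels are high in 1x salt and near those of no salt in 3x salt.

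Aquaporins, the water channels of the plasma membrane and the vacuole, were lower after the stepwise treatment. Of 21 tested, 13 fell and 1 rose, with a median of -1.09, and the counts were the same without 1x salt 1. PIP1;3 had 10.77, 10.87, 10.59 and 10.45 in 3x salt, against 11.97, 11.91 and 11.66 in 1x salt, and 10.39 to 10.58 in no salt. For this gene the 1x salt samples were high and the 3x salt and no-salt samples overlapped. The difference of PIP1;3 was -1.18 (SE 0.14, adjusted p = 0.002), and -0.67 on scanner values. TIP2;1, a tonoplast channel, showed the largest fall (-2.06, adjusted p = 0.0058). PIP1;4 was the rise, with 11.21, 11.24, 12.11 and 11.83 in 3x salt, against 8.44, 10.82 and 10.30 in 1x salt (difference 1.74, adjusted p = 0.0438, and 1.04 without 1x salt 1). On scanner values PIP1;4 was not called (0.26, adjusted p = 0.587). Plasma membrane members are near-identical in places, so cross-hybridisation may blur single genes.

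The jasmonate pathway, known for wound and defence responses, fell in 11 of 22 tested genes and rose in 0, with a median of -0.91 (12 fell without 1x salt 1). Synthesis genes and repressors were both among the falls. OPR3, which acts in the peroxisome to make the jasmonate precursor, had 10.51, 10.32, 11.11 and 10.93 in 3x salt, against 11.82, 12.10 and 12.04 in 1x salt, and 11.86 to 12.47 in no salt. JAZ8, a repressor induced by the hormone, had 9.15, 9.23, 9.26 and 9.27 in 3x salt, against 11.19, 10.69 and 10.58 in 1x salt, and 10.95 to 12.32 in no salt. In both genes every 3x salt sample lay below every sample of the other groups. The differences were -1.26 (SE 0.20, adjusted p = 0.00478) for OPR3 and -1.59 (SE 0.16, adjusted p = 0.00103) for JAZ8.

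JMT, which converts jasmonate to its methyl ester, was among the 12 largest falls of all loci. It had 7.97, 8.18, 8.89 and 9.003 in 3x salt, against 11.25, 12.49 and 12.94 in 1x salt, a difference of -3.72 (SE 0.43, adjusted p = 0.00169). PDF1.2, a defensin induced by jasmonate and ethylene, was detected on 0 of 4 3x salt arrays but on 3 of 3 1x salt arrays. On scanner values it was at least 8.71-fold lower in 3x salt, or at least 4.36-fold without 1x salt 1. The fitted difference of PDF1.2 on deposited values was -2.38 with 1x salt 1, which had 9.48, and -1.38 without it. VSP2, a storage protein induced by jasmonate, did not pass with 1x salt 1 in the fit (-1.73, adjusted p = 0.204) and passed without it (adjusted p = 0.0105), and that sample had 12.16, against 16.08 and 15.64 in 1x salt 2 and 3.

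Of 16 salicylate and systemic immunity genes, 2 were higher and 2 lower (median -0.16), and 4 higher and 2 lower without 1x salt 1 (median 0.17). With all samples these counts lie near the 16.5% higher and 12.3% lower over all tested loci, and do not set the list apart. FMO1, which makes the systemic immune signal N-hydroxypipecolic acid, had 7.10, 6.92, 7.55 and 7.46 in 3x salt, against 5.26, 6.31 and 6.33 in 1x salt, and 10.44 to 10.65 in no salt. Both salt groups were thus far below no salt. FMO1 was higher by 1.29 in 3x salt (SE 0.29, adjusted p = 0.0149). PBS3, an enzyme of salicylate synthesis, rose by 0.78 and EDS5, which exports a precursor of salicylate, fell by 0.63. ICS2, an isochorismate synthase of the plastid, was outside the list and fell by 3.18 (SE 0.11, adjusted p = 2.14e-05), with 6.68 to 6.93 in 3x salt, against 9.87 to 10.06 in 1x salt and 10.11 to 10.998 in no salt.

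Genes tied to senescence, the ordered dismantling of leaf cells, were called higher in 5 of 15 cases and lower in 1, with a median of 0.55 and the same counts without 1x salt 1. Among all tested loci 16.5% were higher and 12.3% lower. The mean level of the list was 9.97 to 10.44 in 3x salt, 9.21 to 9.63 in 1x salt and 9.81 to 10.15 in no salt. For the list mean, 3x salt and no salt thus overlapped and 1x salt was the low group. SAG29, the sugar exporter SWEET15, was among the largest rises of all loci. It had 10.10, 10.14, 9.91 and 9.98 in 3x salt, against 6.74, 7.02 and 6.89 in 1x salt, and 5.45 to 5.64 in no salt. The steps between the groups far exceeded the spread within them. The difference was 3.15 (SE 0.11, adjusted p = 2.14e-05), an 8.88-fold rise. SAG13 (2.17), SGR2 (1.54), ORS1 (1.28) and NYE1 (0.55), the last a chlorophyll-degrading protein, also rose, and SEN1 fell by 1.08. SAG12, a protease of late senescence, was high in 2 3x salt samples, with 5.31, 5.40, 7.84 and 8.21, against 4.46, 4.70 and 4.77 in 1x salt, and did not pass (adjusted p = 0.0732).

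Of 14 genes induced by low energy, 2 rose and 6 fell, with a median of -0.60 (2 rose and 8 fell without 1x salt 1). ASN1, asparagine synthetase, had 11.07, 10.89, 10.24 and 9.95 in 3x salt, against 12.41, 12.99 and 12.65 in 1x salt, and 9.97 to 10.30 in no salt. It differed by -2.15 (SE 0.29, adjusted p = 0.00277), and 1x salt was the group apart. DIN2, a beta-glucosidase, went the other way, with a difference of 3.31 (SE 0.93, adjusted p = 0.0335) in which 1x salt 1, at 5.57, lay far below 1x salt 2 and 3, at 9.46 and 9.93. Without that sample the difference of DIN2 was 1.94, and on scanner values of all samples DIN2 was not called (adjusted p = 0.0649).

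Sugar and starch genes included some of the largest rises. GPT2, which imports glucose 6-phosphate into plastids, had 13.00, 12.87, 13.23 and 13.27 in 3x salt, against 8.77, 10.73 and 10.37 in 1x salt, and 11.31 to 11.61 in no salt. CWINV5, a cell wall invertase, had 12.08, 12.15, 11.02 and 11.16 in 3x salt, against 6.90, 9.38 and 9.08 in 1x salt, and was below background on all no-salt arrays. In both genes 1x salt 1 was the lowest of the salt samples. The differences were 3.14 (SE 0.42, adjusted p = 0.00278) for GPT2 and 3.15 (SE 0.60, adjusted p = 0.00854) for CWINV5, and 2.54 and 2.37 without 1x salt 1. Of 9 sugar transport and invertase genes, 1 rose and 4 fell, as without 1x salt 1, among them the hexose carrier STP1 (-0.92) and the vacuolar invertase VAC-INV (-1.07).

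Of 7 proline genes, 2 rose and 0 fell, and 1 rose and 1 fell without 1x salt 1. P5CR, the last step of proline synthesis, rose by 0.60, and P5CS2 by 0.72 (adjusted p = 0.0456, and 0.065 without 1x salt 1). P5CS1, the stress-induced first step, had 14.05, 13.76, 13.65 and 13.43 in 3x salt, against 13.34, 13.49 and 13.37 in 1x salt, and 12.61 to 12.85 in no salt. Its difference of 0.32 did not pass (adjusted p = 0.151). Of 7 raffinose family and inositol genes, 2 fell and 0 rose, and 3 fell and 2 rose without 1x salt 1. Beside 16.5% higher and 12.3% lower over all tested loci, counts in lists this small do not set the proline or raffinose genes apart. MIPS3 and MIPS2, inositol phosphate synthases, fell by 2.03 and 0.85. GolS4, a galactinol synthase, was above background on all 4 3x salt arrays and on no 1x salt or no-salt array, so its rise was at least 3.38-fold.

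The CC-type glutaredoxins, small redox proteins that are found in land plants, fell in 6 of 11 tested cases and rose in 0, with the lowest median of all 35 lists (-1.21). Without 1x salt 1, 8 fell. AT3G21460 had 9.66, 9.76, 8.58 and 8.80 in 3x salt, against 13.03, 12.58 and 13.04 in 1x salt, and 7.27 to 8.62 in no salt. It was thus highest in 1x salt, and its difference of -3.68 (SE 0.31, adjusted p = 0.000737) was a 12.8-fold fall. AT3G62950 showed the same order of groups and differed by -2.26 (adjusted p = 0.00349).

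All called cuticle genes were lower in 3x salt. Of 22 wax and cutin genes, 8 fell and 0 rose (median -0.32, and 9 fell without 1x salt 1). The share lower over all tested loci was 12.3%. The mean level of the list was 9.92 to 10.22 in 3x salt, 10.54 to 10.60 in 1x salt and 10.00 to 10.24 in no salt. For the list mean, 1x salt was thus the high group, and 3x salt and no salt overlapped. GPAT8, an acyltransferase of cutin synthesis, had 7.24, 7.17, 7.97 and 7.54 in 3x salt, against 9.92, 9.43 and 9.39 in 1x salt, and 9.13 to 9.32 in no salt, a 4.27-fold fall (SE 0.22 on the log2 scale, adjusted p = 0.00142). The 3x salt samples were lower than all others. CER1, which makes the alkanes of leaf wax, had 9.18, 9.50, 10.02 and 10.13 in 3x salt, against 6.38, 8.81 and 8.87 in 1x salt, and 5.63 to 5.98 in no salt, and did not pass (1.69, adjusted p = 0.0673).

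Of 9 alpha-expansins, which loosen walls, 4 fell, and of 19 xyloglucan transglucosylases 7 fell. Without 1x salt 1 these counts were 3 and 2. The share lower over all tested loci was 12.3%, and 10.5% without 1x salt 1. The transglucosylase count without that sample is thus no higher than among all loci. XTH8 had 7.63, 7.70, 7.13 and 7.16 in 3x salt, against 9.54, 9.53 and 9.42 in 1x salt, and was 4.27-fold lower (SE 0.17 on the log2 scale, adjusted p = 0.000634). XTH16 had 10.70, 10.56, 8.63 and 8.90 in 3x salt, against 11.90, 11.77 and 11.40 in 1x salt, so that the split between 3x salt samples 1 and 2 and samples 3 and 4 was as large as the gap to 1x salt. Early auxin response genes, which include IAA repressors, fell in 4 of 13 cases and rose in 1, but fell in 2 and rose in 2 without 1x salt 1. Without that sample 14.0% of all tested loci were higher and 10.5% lower, so those counts do not set the auxin list apart.

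Heat shock genes of the list showed 3 rises and 1 fall among 14, and 3 rises and 2 falls without 1x salt 1. Of 23 tested genes with the symbol stem HSP, picked after their values were seen, 12 were higher and 1 lower. Their median difference was 0.58, and without 1x salt 1 the counts were 12 and 2. Over all tested loci 16.5% were higher and 12.3% lower, and the HSP genes were not tested as a group. HSP70 (AT3G12580), a cytosolic chaperone, had 13.50, 13.88, 13.79 and 13.71 in 3x salt, against 10.99, 11.88 and 11.94 in 1x salt, and 11.25 to 11.50 in no salt. HSP21, a chloroplast chaperone, was detected on all 4 3x salt arrays but on 1 of 3 1x salt arrays. The differences were 2.12 (adjusted p = 0.00158) for HSP70, 2.99 (adjusted p = 0.000247) for HSP21 and 1.49 for HSP90.1, whereas HSP18.2 fell by 0.65. Small heat shock proteins of the list without a call had differences between -0.33 and 0.46.

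The remaining lists are given by their counts, to be read beside 16.5% higher and 12.3% lower over all tested loci. Clock genes had 1 rise, ELF4 (1.06), and 0 falls among 11. Touch, wound and cold genes had 2 of 16 in each direction, antioxidant and reactive oxygen genes 1 of 9 in each and iron genes 1 of 10 in each. Without 1x salt 1, touch, wound and cold genes had 3 rises and 2 falls, antioxidant genes 0 rises and 1 fall, and clock and iron genes the same counts. Starch genes had 3 rises and 2 falls among 10, GPT2 among the rises, and 3 rises and 1 fall without 1x salt 1.

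Markers of several cell types were among the falls. Guard cell identity and blue light genes fell in 4 of 10 cases (4 without 1x salt 1, median -0.45): MYB60, a guard cell transcription factor that favours opening (-1.15, SE 0.20, adjusted p = 0.00642), the myrosinases TGG1 (-1.11) and TGG2 (-1.37), and the blue light receptor PHOT2 (-0.58). MYB60 had 9.44, 9.15, 9.54 and 9.41 in 3x salt, against 10.67, 10.06 and 10.86 in 1x salt, and 10.26 to 10.95 in no salt. FMA, which sets guard cell identity, overlapped between groups (11.11 to 11.74 in 3x salt, against 11.001 to 11.76 in 1x salt, adjusted p = 0.508). Of 7 stomatal lineage genes, 0 were called, and 1 fell without 1x salt 1.

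Vascular markers fell in 7 of 14 cases and rose in 0, with a median of -0.95 (9 fell without 1x salt 1). Their mean level was 10.51 to 10.92 in 3x salt, against 11.29 to 11.76 in 1x salt, and 10.40 to 10.78 in no salt. XCP1, a protease of developing xylem vessels, had 6.49, 6.83, 6.16 and 6.04 in 3x salt, against 8.30, 8.99 and 8.91 in 1x salt, and 6.98 to 7.99 in no salt, a difference of -2.36 (SE 0.24, adjusted p = 0.00117). SEOR1, a sieve element protein, fell by 1.48 and the phloem sucrose carrier SUC2 by 0.89 (-0.56 on scanner values). Pavement cell and trichome markers fell in 2 of 7 cases (1 without 1x salt 1), with PDF1 of the protoderm at -1.55. The share lower over all tested loci was 12.3%, and 10.5% without 1x salt 1. No defining marker of these lists was at background in a whole group among those tested, and the part of other cell types in the results above was not tested.

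**Figure D5:**
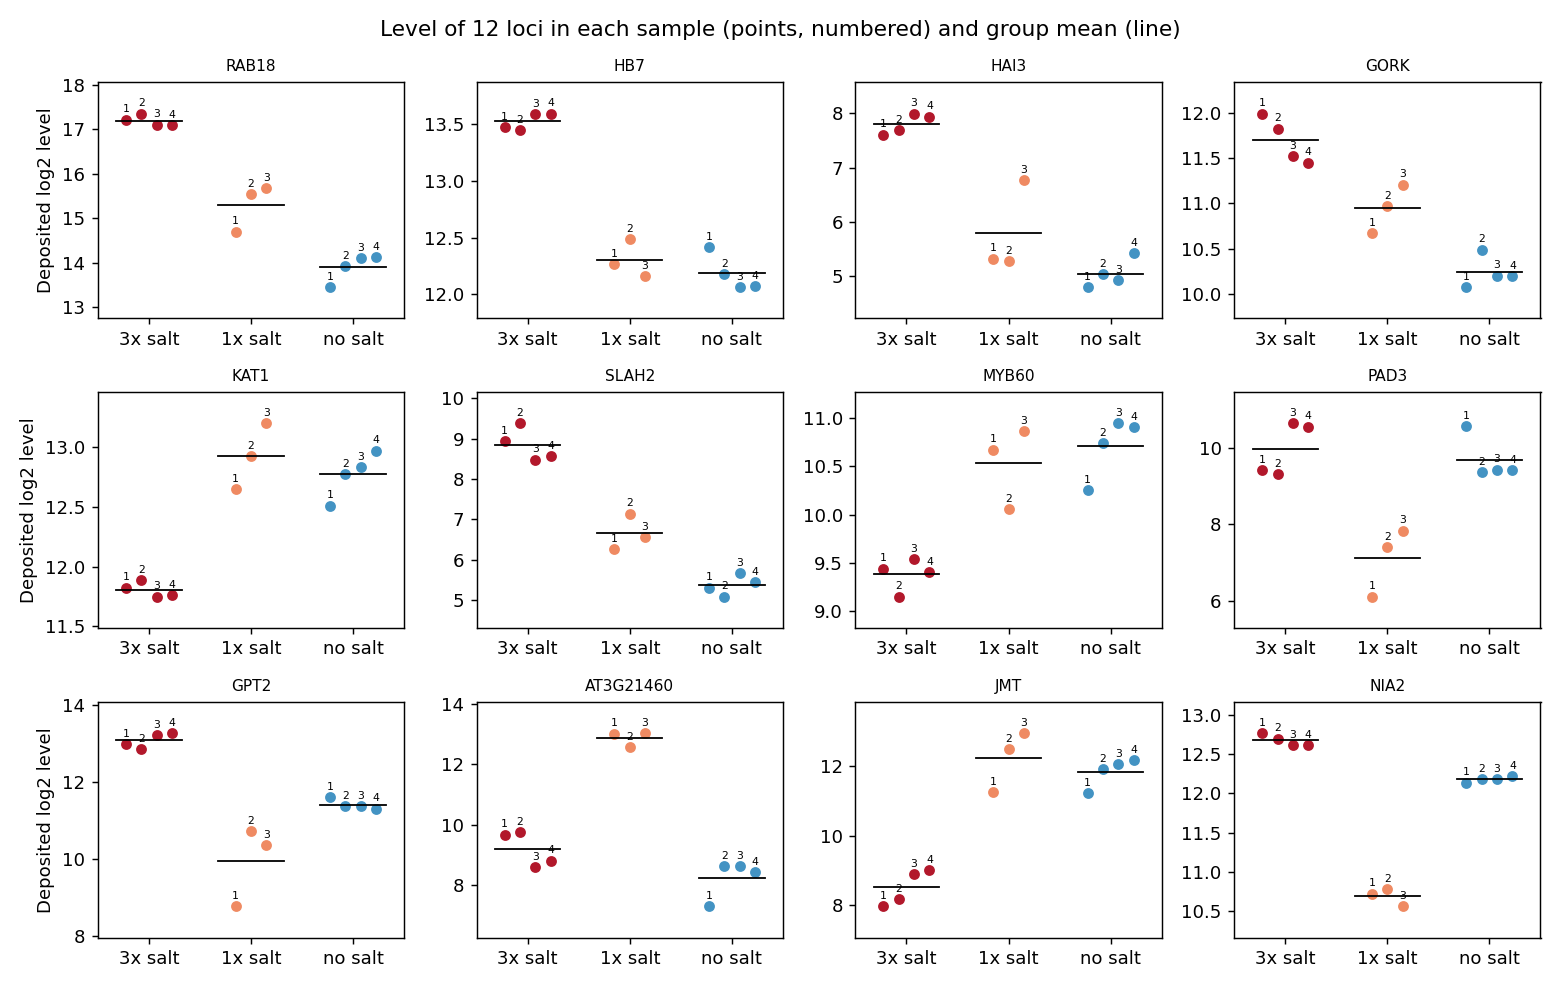
Deposited log2 level of 12 loci in each sample (numbered points; lines are group means), with 3x salt at the left, 1x salt in the middle and no salt at the right. RAB18, GORK and SLAH2 form steps over the groups, KAT1, MYB60 and JMT are lower in 3x salt alone, and NIA2, PAD3 and GPT2 are lowest in 1x salt.

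The largest differences over all loci lay mostly outside the lists. Among the 12 largest rises that were above background on all 7 arrays were DI21, a drought-induced gene, PAD3, which completes synthesis of the defence compound camalexin, MAN1, an endo-beta-mannanase, CYP76C2, a cytochrome P450 (2.64, but 1.52 without 1x salt 1 and 1.13 on scanner values), and GSTU10, a glutathione S-transferase. DI21 had 17.81, 17.75, 17.65 and 17.69 in 3x salt, against 14.17, 15.07 and 15.16 in 1x salt, and 12.58 to 12.72 in no salt. The 3 groups formed steps, and DI21 rose by 2.93 (SE 0.23, adjusted p = 0.000611). PAD3 had 9.42, 9.30, 10.64 and 10.55 in 3x salt, against 6.12, 7.41 and 7.84 in 1x salt, and 9.36 to 10.56 in no salt, so the low group was 1x salt. The other rises were AT4G37295 (3.37), AT3G03620 (3.23), AT5G35660 (2.94) and AT3G17520 (2.88), which carry no symbol in the gene table, and the 3 named earlier, SAG29, CWINV5 and GPT2. On scanner values AT5G35660 differed by 0.97.

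The largest fall among these loci was that of AT3G05730, a locus with no symbol, which had 10.64, 9.64, 8.76 and 8.996 in 3x salt, against 15.97, 15.19 and 14.60 in 1x salt, and 14.11 to 14.42 in no salt. The gap between the groups, -5.75 (SE 0.48, adjusted p = 0.000718), was a 53.7-fold fall. AT3G16660 was 18.4-fold lower, while AT1G04800 differed by -4.13 and AT5G03350 by -3.58. MEE3, a MYB-like factor, fell by 3.14, with 9.43 to 10.12 in 3x salt, against 12.19 to 13.98 in 1x salt. AT3G55646, AT5G22580, AT5G48490 and AT5G12940 completed the 12 with differences of -3.49, -3.43, -3.17 and -3.16, besides JMT, ICS2 and AT3G21460.

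Some loci were detected in 1 group alone. Of the loci called higher, 19 were above background on all 4 3x salt arrays and on no 1x salt array, and 43 loci called lower showed the reverse. Such loci passed the filter of 3 arrays only through the group where they are high. Array 1x salt 3 had 80.3% of its spots above background, against 66.2% to 71.8% on the others. The counts of 19 and 43 are therefore not like for like. CYP86A1, a fatty acid hydroxylase of suberin synthesis in roots, rose at least 5.38-fold, AT2G33520 at least 4.51-fold, PDE337 at least 3.54-fold and AT1G04560 at least 2.98-fold. CYP86A1 was above background on 4 of 4 no-salt arrays too. In the other direction, THI2.2, an antimicrobial thionin, was at least 21.8-fold lower in 3x salt, PME5, a pectin methylesterase, at least 13.5-fold, TPS10 (AT2G24210), a terpene synthase, at least 11.4-fold, and CYP86A7 at least 7.62-fold. These bounds set the brighter group's mean scanner signal against the dim group's detection limit, and they hold for scanner values only. Fitted folds on deposited values were smaller for THI2.2 (14.8), PME5 (7.38), TPS10 (7.88), CYP86A7 (3.99), CYP86A1 (4.94) and PDE337 (2.88). THI2.2, PME5, TPS10, CYP86A7 and PDF1.2 were above background on all 4 no-salt arrays. Without 1x salt 1 the bound of TPS10 was 19.3-fold.

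Where the no-salt mean lay gives the calls another point, as a description only. Of the 3131 loci higher in 3x salt, the no-salt mean was below both salt groups in 48.2%, between them in 47.7% and above both in 4.15%. Of the 2332 loci lower in 3x salt, it was above both in 36.4%, between them in 55.5% and below both in 8.10%. Over all tested loci the shares were 35.4% below, 33.6% between and 31.0% above. Choosing loci for a difference between the salt groups changes these shares by itself, so the last values are not a like-for-like background. With the 1x salt mean taken without 1x salt 1, no salt lay below both in 59.0% of the same rises and between in 36.8%, and above both in 42.3% of the falls and between in 49.6%. RAB18, SLAH2, SAG29 and DI21 belong to the rises with no salt lowest, and GPT2, NIA2 and PAD3 to those with no salt between the salt groups.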

How the data were processed

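RNA of guard cell samples (100 ng, Cy3) was hybridised to 1-colour arrays, per the labels' protocols. The deposited scanner files hold a background-subtracted processed intensity that Agilent's Feature Extraction software (version 11.5.1.1) wrote, as the file headers say. The authors deposited a table of log2 values per locus with a column for each sample. Its normalisation is not given in the sources used here: column medians were 8.29 to 8.34 and the sorted columns nearly match, and its centring stays unknown. Probes were matched to 25195 of its 28718 loci through RefSeq gene names of assembly TAIR10.1. The headers name TAIR10, so no coordinates are given. The other 3523 loci were not tested.

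The deposited log2 values of the 4 3x salt and 3 1x salt samples entered a linear model in R 4.3.3 (limma 3.58.1, functions lmFit and eBayes, 5 residual degrees of freedom), two-sided, with p-values adjusted over 18931 loci and a threshold of 0.05. Every adjusted p comes from limma. Bounds on folds come from scanner values minus each array's 75th percentile. The number of arrays limits the precision. On simulated data for 18931 loci with 200 changed, the fit recovered 50% of log2 changes of 1 and 2% of 0.5, and called 3 unchanged loci. Far fewer loci changed there than the 5463 called here, and its samples were drawn independently, without close pairs. Its shares therefore do not carry over to this comparison.

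Named loci were the 12 largest differences per direction (called, no overlap, above background on all 7 arrays), 5 per direction detected in 1 group alone, up to 4 called members per list with the smallest adjusted p, and a set list of channels and ABA genes. Further list members and the loci in the closing section were chosen after their values were seen. The comparison, the 35 lists (475 genes, 445 tested) and these rules were chosen with earlier results of these data known. Lists got counts and medians and no set test. Figures used python 3.11.15, pandas 2.3.3 and matplotlib 3.10.9. Alternatives were other values, normalisations, filters, blocks and samples left out.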

Additional observations from a re-analysis of the deposited data

Results flagged for a closer look

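In the 3x salt group of 4, 1 sample stood far from the other 3 in 8 of 151 named loci tested. Chance flags about 1 in 20 groups, so 8 is close to that rate. The rate takes the 4 samples as independent, whereas 3x salt 1 and 2, and 3 and 4, were close pairs. Sample 3x salt 2 was the outlying one for AT3G55646 (log2 level 6.71, the others 7.03 to 7.06), AT2G33520 (7.05, the others 6.86), HB12 (13.66, the others 14.03 to 14.04) and APL3 (14.20, the others 14.04 to 14.05). Sample 3x salt 1 was the outlying one for GH3.1 (6.13, the others 5.38 to 5.48) and SUC1 (10.71, the others 10.88 to 10.90). Sample 3x salt 3 was the outlying one for AT3G15450 (10.85, the others 10.46 to 10.53) and ATML1 (9.63, the others 9.35 to 9.39). All 8 loci were called between the salt groups.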

How the results depend on the processing

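No called named locus changed direction under any setting run. Counts of called loci stayed within 1.5 times of 5463 on scanner values (5817 to 6111), with other normalisations of the deposited values (5381 and 5502), other filters (5111 to 5479), trend and robust moderation (5673), all 11 arrays (6909), and slide as a random block over them (7734, chosen after seeing the data). With the mean of all probes 48.9% of calls were higher, against 57.3% in the main setting (scanner values, brightest probe: 3177 higher and 2934 lower). Leaving out 1 sample gave 3477 (without 3x salt 4) to 4706 calls, 1894 to 2690 higher and 1583 to 2016 lower.

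With close samples averaged, limma called 0 loci, 0 higher and 0 lower (4708 at an unadjusted p below 0.05), and with slide as a fixed block 2987, 1776 higher and 1211 lower. With replicate number as a block 3194 were called, 1680 higher and 1514 lower; samples with the same number correlated at 0.344, -0.157 and 0.330, so they were not taken as pairs. Of 145 called named loci, 117 were called with that block, 101 with the fixed slide block, 134 without 1x salt 1 and 137 on scanner values. Slide 1 alone holds both salt groups (1 sample each, both also in the full comparison, no test). There the difference of 84 of these 145 lay close to the value reported. Close means nearer than the square root of the summed squares of both group SDs, which exceeds either SD. A random slide block over the 7 arrays could not be fitted. For differences lost, the cause was not tested.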

Other observations

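Gene families named by a shared symbol stem in the gene table, picked here after their values were seen, add to the picture. Of 48 tested UGT genes, glycosyltransferases that attach sugars to small molecules, 17 were higher in 3x salt and 0 lower, with a median difference of 0.45 (12 higher without 1x salt 1). UGT73B5 rose by 1.36 and UGT71B6, which acts on ABA, by 0.93 (limma adjusted p = 0.0023 and 0.00779). Of 25 GSTU glutathione S-transferases, 8 were higher and 4 lower; GSTU10 rose by 2.62 and GSTU9 by 2.39, while GSTU20 fell by 0.80. Of 44 RLP receptor-like proteins, 16 were higher and 1 lower (median 0.46, 16 and 1 without 1x salt 1), RLP41 among them at 1.78.

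Lower in 3x salt were 13 of 32 TBL genes, a family of wall polysaccharide acetyltransferases, with 3 higher (median -0.42). TBL36 fell by 1.71 and TBL9 rose by 1.71. Of 26 tested genes with the stem IQD, 8 were lower and 0 higher, and IQD3 fell by 1.22. Over all tested loci 16.5% were higher and 12.3% lower. These families were not tested as groups.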
